A study of Mus musculus with 4 samples.

Results

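The genes examined were those of MHC class I antigen presentation. These were the 10 genes H2-K1, H2-D1, B2m, Tap1, Tap2, Tapbp, Psmb8, Psmb9, Psmb10 and Nlrc5, picked by name in the mRNA values, and the transcripts of each were summed to 1 value per gene. All 10 were found among 21878 genes, with 29 of the 75959 transcripts. The samples came from C3H10T1/2, a mouse mesenchymal stem cell line. The 2 untreated samples, replicates 1 and 2, had no agent listed, and the other 2, replicates 101 and 102, had received 20 μM 5-AZA for 72 h and were then kept in fresh medium for 21 days. 5-AZA (5-azacytidine) is a cytidine analogue that is built into nucleic acids and lowers DNA methylation. No culture time was listed for the untreated samples, so the drug and the time in culture cannot be told apart. The study calls the samples of a group biological repeats without naming separate cultures, and the p-values may measure technical spread only.

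Class I molecules show pieces of a cell's own proteins to CD8+ T cells. Proteasomes cut proteins into peptides, the TAP transporter carries the peptides into the endoplasmic reticulum, and tapasin and its partners help load them onto a heavy chain bound to β2-microglobulin. Nearly all nucleated cells make these parts at some level, and interferons raise many of them. H2-K1 and H2-D1 encode classical heavy chains, and near-identical copies among the class I genes can share reads, so the split of reads between these genes is uncertain. C3H mice carry class I alleles that differ from those of the C57BL/6 reference genome, and the effect of this on the read assignment was not tested.

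Of the members, 7 lie on chromosome 17, where the major histocompatibility complex is, B2m lies on chromosome 2, and Psmb10 and Nlrc5 lie on chromosome 8. Psmb9, Tap1, Psmb8 and Tap2 are direct neighbours in that order among the protein-coding genes of RefSeq. RefSeq promoter windows (build GRCm38.p6, 300 bases, of which 250 lie before the start site) were matched for 8 of the 10 members, and Tap2 and Nlrc5 had no entry. The stretches below end at the base before the start site and are given because the heavy chain genes and B2m, whose products form 1 molecule, hold the same elements. Capitals mark letters that match an interferon response element (GAANNGAAA or GAANNNGAAA), the kB consensus, the X2 box (TGACG) or the Y box (CCAAT), each on either strand.
H2-K1, chr17:34000348-34000547, minus strand: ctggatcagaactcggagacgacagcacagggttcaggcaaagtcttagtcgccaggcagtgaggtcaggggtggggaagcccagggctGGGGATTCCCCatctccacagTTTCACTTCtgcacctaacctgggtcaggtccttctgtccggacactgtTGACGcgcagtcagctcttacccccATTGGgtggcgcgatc
H2-D1, chr17:35262894-35263093, plus strand: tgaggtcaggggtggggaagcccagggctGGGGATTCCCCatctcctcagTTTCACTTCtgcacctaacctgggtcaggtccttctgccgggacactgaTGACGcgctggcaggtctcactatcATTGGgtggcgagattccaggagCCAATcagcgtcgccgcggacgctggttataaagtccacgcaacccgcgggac
B2m, chr2:122147487-122147686, plus strand: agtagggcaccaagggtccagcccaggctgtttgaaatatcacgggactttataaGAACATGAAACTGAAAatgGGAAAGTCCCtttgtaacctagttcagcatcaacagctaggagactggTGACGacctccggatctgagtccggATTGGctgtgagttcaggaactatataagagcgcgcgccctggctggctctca

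The H2-K1, H2-D1 and B2m stretches each held an interferon response element, a kB consensus and an X2 box followed by a Y box on the other strand (ATTGG). In all 3 genes 20 bases lay between the X2 box and the Y box. Of the 32851 promoter windows, 14.3% held the interferon response element, 8.46% the kB consensus, 20.8% an X2 box and 37.4% a Y box. An X2 box with a Y box 10 to 30 bases after it was held by 0.743% of windows, and 31 windows, 0.0944%, had the exact spacing of 20. This spacing was read from these 3 genes before it was counted, so the share is a description. X and Y boxes are the elements through which Nlrc5, the class I transactivator, is known to act with the RFX and NF-Y factors. A match is not a bound site, and no binding was measured here.

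The remaining members differed from these in their windows. Tap1 and Psmb9 start in opposite directions from a shared stretch of 225 bases, which is given in the orientation of Tap1 because it serves both genes. It held a Y box and an X2 box without the paired arrangement. The Psmb8 stretch is given because this gene had the largest change of the 10, and its capitals mark a GAS element (TTCNNNGAA), an element of interferon-responsive promoters. A GAS element was present in 8.30% of all windows. Tapbp had 2 Y boxes, and the Psmb10 window held none of these letters.
Tap1 and Psmb9, chr17:34187331-34187555, plus strand: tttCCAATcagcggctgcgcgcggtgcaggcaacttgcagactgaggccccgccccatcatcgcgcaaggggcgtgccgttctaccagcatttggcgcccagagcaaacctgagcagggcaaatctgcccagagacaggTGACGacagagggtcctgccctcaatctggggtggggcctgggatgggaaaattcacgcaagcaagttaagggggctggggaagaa
Psmb8, chr17:34197995-34198194, plus strand: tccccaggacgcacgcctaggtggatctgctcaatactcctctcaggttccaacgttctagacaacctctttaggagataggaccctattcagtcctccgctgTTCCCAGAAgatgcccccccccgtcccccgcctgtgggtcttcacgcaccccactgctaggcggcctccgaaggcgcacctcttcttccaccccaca

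CpG dinucleotides, the sites of DNA methylation, numbered 19 in the H2-D1 window, 17 for Psmb9, 15 for Tap1, 14 for B2m, 11 each for Tapbp and Psmb8, and 3 for Psmb10. H2-K1 had 2 listed start sites with 14 and 15. The median over all windows was 7, with quartiles of 3 and 20. Methylation itself was not measured in these samples.

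FPKM, fragments scaled to transcript length and to sequenced fragments, sums over mRNAs to between 328410 and 361664 per sample. Read counts cannot be recovered from it, and the depth of each library is unknown. The 5-AZA samples carried skeletal muscle genes. All 10 of a list of muscle genes rose more than 2-fold, as did 13.1% of all genes tested. Of these 10, Myod1, Ttn, Myh3, Ckm, Myog and Tnni2 had untreated means below 0.1 FPKM and were tested only through their treated values. The summed level of the list was 1.62 and 1.28 FPKM in the untreated and 819 and 1253 FPKM in the 5-AZA samples. Mesenchymal markers were measured in every sample, with sums between 3261 and 4004 FPKM. Of the 10 listed 5 rose and 3 fell, beside 18.6% and 5.93% of all genes tested. None of 13 immune cell markers reached the limit for testing (a mean of 0.1 FPKM), 7 were at 0 in all samples, and the list summed to 0.150 and 0.105 FPKM in the untreated and 0.312 and 0.198 FPKM in the 5-AZA samples. Ptprc, which encodes the common leukocyte antigen CD45, was at 0 in 3 samples and at 0.0631 FPKM in replicate 101. In such bulk RNA, more cells of a type and more RNA per cell cannot be told apart, and the part of the muscle genes in the values below was not tested.

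In all, 8 of the 10 class I presentation genes rose after 5-AZA at an adjusted p under 0.05, and none fell. Of these 8, the 4 genes Psmb8, H2-K1, H2-D1 and Nlrc5, rose by more than 2-fold, and Tap1, Psmb10, Psmb9 and B2m rose by less. Tap2 and Tapbp did not pass the test. Nlrc5 entered the test only through its treated values, and of the 9 other members 7 rose and 3 rose by more than 2-fold. Values were tested with limma on log2(FPKM + 0.1) over 13199 genes, with Benjamini-Hochberg adjustment over all of them. By the same fit 18.6% of all genes tested rose, 5.93% fell, 13.1% rose more than 2-fold and 1.32% fell more than 2-fold. In 8 of the 10 members both 5-AZA samples lay above both untreated samples, as they did in 36.8% of all genes tested. The median log2 fold change was 0.84 over the members, 0.80 without Nlrc5 and 0.05 over all genes tested.

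**Figure D1:**
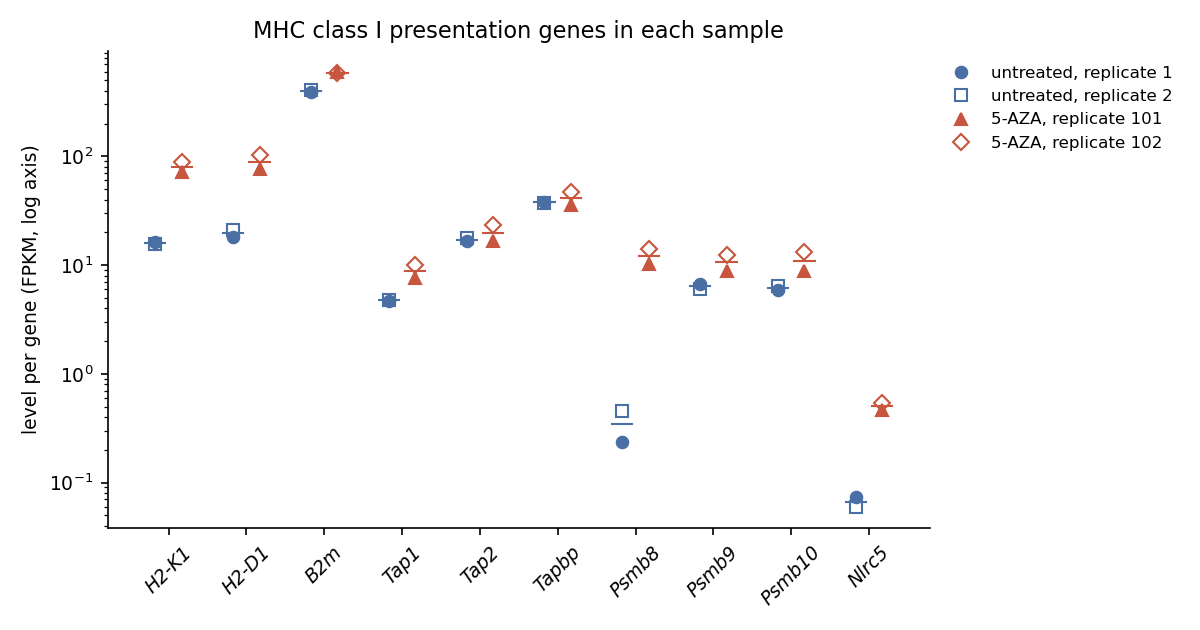
Level of each member in each of the 4 samples, as FPKM summed over transcripts on a log axis, with short lines for the mean of each group of 2. The untreated and 5-AZA symbols are apart in 8 of 10 genes and overlap for Tap2 and Tapbp, and Psmb8 and Nlrc5 show the widest gaps.

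The heavy chain gene H2-K1 was at 16.2 and 15.7 FPKM in the untreated replicates and at 71.8 and 88.0 FPKM in 5-AZA replicates 101 and 102. Both treated samples were far above both controls, and the groups did not overlap. The log2 fold change was 2.31 (95% interval 2.04 to 2.59, adjusted p = 3.58e-06, limma), a 5.02-fold ratio of the means. H2-D1, the other classical heavy chain, was at 18.0 and 21.1 FPKM without treatment and at 76.0 and 102 FPKM with it. Here too the lowest treated value lay above the highest untreated value. The log2 fold change was 2.17 (95% interval 1.83 to 2.52, adjusted p = 1.61e-05, limma), with a 4.56-fold ratio of the means. The intervals of H2-K1 and H2-D1 overlapped.

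B2m encodes β2-microglobulin, the invariant light chain of every class I molecule. Its level was 392 and 409 FPKM in the untreated and 590 and 582 FPKM in the 5-AZA samples. It was the most abundant member in all 4 samples, and its groups did not overlap. The log2 fold change was 0.55 (95% interval 0.33 to 0.77, adjusted p = 0.00358, limma), below that of either heavy chain. The level of B2m was 11.5 and 11.1 times the summed level of H2-K1 and H2-D1 in the untreated samples and 3.99 and 3.06 times in the treated ones. This ratio, chosen after its values were seen, was 11.3 ± 0.241 (SD, n = 2) without and 3.53 ± 0.661 (SD, n = 2) with treatment. The summed heavy chain level rose from a mean of 35.5 ± 1.81 to 169 ± 30.03 FPKM (SD, n = 2). Without either 5-AZA replicate B2m no longer passed, with an adjusted p of 0.0726 without replicate 101 and 0.0730 without replicate 102.

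Of the transporter and loading genes only Tap1 rose. Tap1, a subunit of the peptide transporter, was at 4.69 and 4.79 FPKM in the untreated and 7.68 and 10.1 FPKM in the 5-AZA samples. It was higher in both treated samples, by 0.88 on the log2 scale (95% interval 0.49 to 1.26, adjusted p = 0.00544, limma). Its partner subunit Tap2 was at 16.6 and 17.8 FPKM without treatment and at 16.5 and 23.1 FPKM with it, so that replicate 101 lay below both controls and replicate 102 above them. The log2 difference of 0.19 did not pass (95% interval -0.18 to 0.56, adjusted p = 0.455, limma). Tapbp, which encodes tapasin, the bridge between the transporter and the heavy chain, was at 38.4 and 36.9 FPKM and then 35.3 and 46.6 FPKM. Its groups overlapped in the same manner, and its log2 difference was 0.11 (95% interval -0.20 to 0.42, adjusted p = 0.628, limma). These intervals leave out a 2-fold change of Tap2 or Tapbp. Without replicate 102 the difference was -0.05 for Tap2 and -0.09 for Tapbp, and Tap1 did not pass without replicate 101 (adjusted p = 0.0558) or 102 (adjusted p = 0.0986), nor without a limit on low values (0.0843).

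Among the inducible catalytic subunits, which replace standard subunits to form the immunoproteasome, Psmb8 had the largest change, with an interval above those of Psmb9 and Psmb10. Psmb8 was at 0.235 and 0.450 FPKM in the untreated and at 10.3 and 14.0 FPKM in the 5-AZA samples. The gene moved from near the limit for testing to the level of the other inducible subunits. Its log2 fold change was 4.82 (95% interval 4.17 to 5.47, adjusted p = 6.53e-06, limma). With 1 or 0.01 FPKM added in place of 0.1 the change was 3.28 or 5.16, and without replicate 101 or 102 the adjusted p was 0.0504 or 0.0558.

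Psmb9 was at 6.66 and 6.05 FPKM in the untreated and 8.91 and 12.2 FPKM in the 5-AZA samples. The groups did not overlap, and the gene rose by 0.71 on the log2 scale (95% interval 0.31 to 1.11, adjusted p = 0.0180, limma). Psmb10 was at 5.88 and 6.40 FPKM without treatment and 8.74 and 13.2 FPKM with it. It rose by 0.80 on the log2 scale (95% interval 0.35 to 1.25, adjusted p = 0.0182, limma), again without overlap. Neither passed without replicate 101 (adjusted p = 0.0740 for Psmb9 and 0.0593 for Psmb10) or without replicate 102 (0.157 and 0.145), nor with a plain variance prior in limma (0.0770 and 0.0864) or without a limit on low values (0.151 and 0.177). Psmb8 lies between Tap1 and Tap2 on the chromosome and thus had a log2 change of 4.82 beside neighbours at 0.88 and 0.19.

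**Figure D2:**
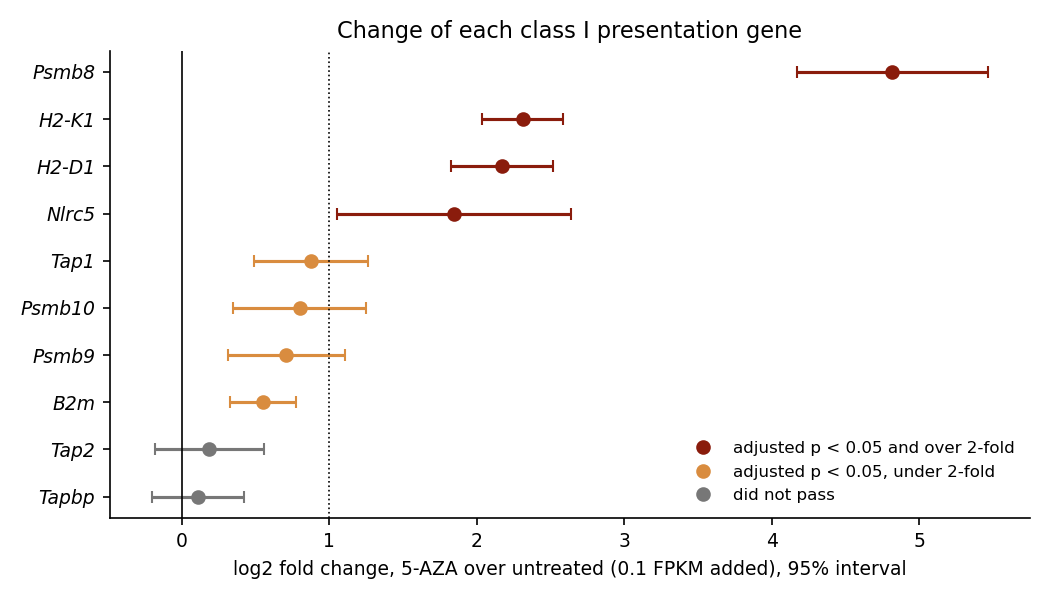
Log2 fold change of each member, 5-AZA over untreated after adding 0.1 FPKM, with limma's 95% interval, the solid line at 0 and the dotted line at 2-fold. Psmb8 stands at 4.82, H2-K1, H2-D1 and Nlrc5 lie between 1.85 and 2.31, and the intervals of Tap2 and Tapbp cross 0.

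Nlrc5, the class I transactivator, was the least abundant member. It was at 0.0735 and 0.0600 FPKM in the untreated and 0.465 and 0.537 FPKM in the 5-AZA samples. Both treated samples were above both controls, but the controls lay below the limit of 0.1 FPKM, and the gene was tested only because of its treated values. The log2 fold change was 1.85 (95% interval 1.05 to 2.64, adjusted p = 0.00494, limma). It was 0.49 with 1 FPKM added (adjusted p = 0.0103, limma) and 2.74 with 0.01 FPKM added. After quantile normalization it was 0.53 and did not pass (adjusted p = 0.182, limma). Of the 6 Nlrc5 transcripts 1 was tested, the predicted XM_011248428.1, and it did not pass (adjusted p = 0.253, limma). The curated NM_001033207.3 was at 0.0250 and 1.39e-07 FPKM in the untreated and at most 1.44e-09 FPKM in the 5-AZA samples. Predicted transcripts thus held the treated level of the gene.

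FPKM is scaled to length, so levels can be set in order across genes. The places of H2-K1 and H2-D1 carry the uncertain split of reads between class I genes, whose effect was not tested. In the untreated samples the order of the mean levels was B2m, Tapbp, H2-D1, Tap2, H2-K1, Psmb9, Psmb10, Tap1, Psmb8 and Nlrc5, and only the neighbours Psmb9 and Psmb10 had overlapping values. After 5-AZA the order was B2m, H2-D1, H2-K1, Tapbp, Tap2, Psmb8, Psmb10, Psmb9, Tap1 and Nlrc5. There H2-D1 overlapped H2-K1, and Psmb8, Psmb10, Psmb9 and Tap1 overlapped each neighbour in turn. Both heavy chains thus moved above Tapbp and Tap2. Among all 21878 genes ranked by mean level, H2-K1 moved from rank 3441 to 684, H2-D1 from 2841 to 596, Psmb8 from 11259 to 4486 and B2m from 124 to 81. Nlrc5 moved from 12561 to 11856.

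Of the 10 members 9 were higher in replicate 102 than in replicate 101, as were 74.6% of all genes tested. B2m was the exception. The muscle genes had the same order, with summed levels of 819 FPKM in replicate 101 and 1253 FPKM in replicate 102, and the summed FPKM of all mRNAs was 328410 and 361664. The part of these in the order of the members was not tested.

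Each inducible subunit was then set against the constitutive subunit whose place it takes. Psmb8 was at 0.358% and 0.773% of the level of Psmb5 in the untreated samples and at 18.9% and 22.4% after 5-AZA. Psmb9 was at 7.83% and 6.92% of Psmb6, and then at 10.2% and 13.7%. Psmb10 was at 4.61% and 4.93% of Psmb7, and then at 7.46% and 10.3%. In the untreated samples Psmb8 thus had the lowest share of the 3, and after treatment the highest. The log2 differences of the ratios were 5.29, 0.68 and 0.88, each higher in both treated samples. The exact permutation test gave p = 0.333 for each of the 3 ratios, two-sided and also after adjustment, which is the smallest p that 2 samples against 2 allow.

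**Figure D3:**
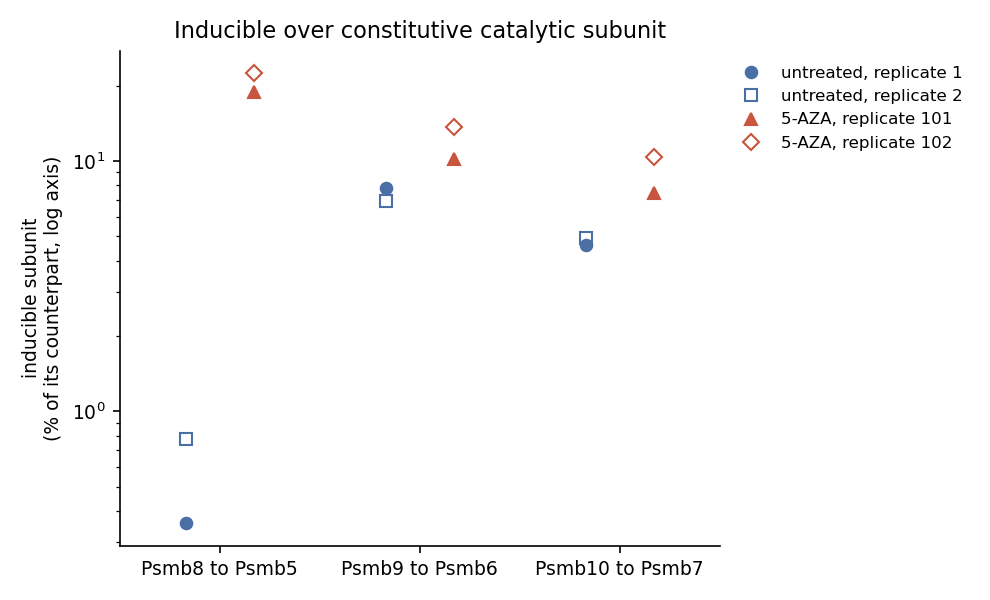
Level of each inducible catalytic subunit as a percentage of its constitutive counterpart in each sample, on a log axis, with circles and squares for untreated and triangles and diamonds for 5-AZA samples. The ratio of Psmb8 to Psmb5 lies below 1% in both untreated samples and at 18.9% and 22.4% in the treated ones, and the other ratios shift less.

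The constitutive counterparts did not pass the test. Psmb5 had a log2 difference of -0.08, Psmb6 of 0.03 and Psmb7 of -0.07, and their intervals lay between -0.34 and 0.24. Of all 14 constitutive core subunits, none passed in limma, with 1 at an unadjusted p under 0.05, and their median log2 difference was 0.02. Of 5 genes of activators and assembly, only Psme4, which encodes the activator PA200, passed. It fell, as did 5.93% of all genes tested, from 32.3 and 29.6 FPKM to 19.5 and 21.7 FPKM (log2 fold change -0.59, adjusted p = 0.00519, limma). It did not pass without replicate 101 (adjusted p = 0.103) or 102 (0.0816), nor without a limit on low values (0.0586). Psme1 and Psme2, the subunits of the interferon-inducible activator PA28, had log2 differences of 0.27 (95% interval -0.01 to 0.54) and 0.23 (95% interval -0.06 to 0.52) that did not pass.

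The transcript values show which models carried these genes. Of the 29 transcripts 17 were tested and 3 rose more than 2-fold, against 2.1% of all 35557 transcripts tested. They were the only H2-D1 and Psmb8 transcripts, NM_010380.3 and NM_010724.2, and the predicted H2-K1 transcript XM_006523680.2. The last was at 15.6 and 14.0 FPKM in the untreated and 64.4 and 80.4 FPKM in the 5-AZA samples and held most of the H2-K1 level. The curated H2-K1 transcript NM_001001892.2 was at 0.0765, 0.729, 3.14 and 3.26 FPKM in the same order and did not pass. The predicted XM_006523677.3 was at 0.406 and 0.658 FPKM and then 2.66 and 2.10 FPKM, and XM_006523673.3 at 0.0900 and 0.251 FPKM and then 0.766 and 1.24 FPKM. Both were higher in the treated samples without overlap, and neither passed.

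Other members had 1 main transcript or a few. B2m and Tap2 had 1 transcript each, NM_009735.3 and NM_011530.3, which hold the values given for the genes. NM_013683.2 held nearly all of Tap1, with 4.69 and 4.79 FPKM in the untreated and 7.61 and 10.02 FPKM in the 5-AZA samples. NM_013640.3 held most of Psmb10, with 5.57 and 6.04 FPKM and then 8.22 and 12.2 FPKM. Neither of the last pair passed at the level of transcripts, though their groups did not overlap. For Psmb9, the curated NM_013585.2 was at 5.66, 5.71, 5.63 and 8.93 FPKM in untreated replicates 1 and 2 and 5-AZA replicates 101 and 102, with overlap. The predicted XM_006523730.2 was at 1.00, 0.341, 3.28 and 3.32 FPKM, without overlap, and neither Psmb9 transcript passed the test on its own. With curated transcripts only, the log2 difference of Psmb9 was 0.31 (adjusted p = 0.445, limma). That of Psmb10 was 0.78 in this setting and did not pass either (adjusted p = 0.0568, limma). The reads of such models overlap, and the division between them is an estimate of the authors' software. Both Tapbp transcripts had similar levels, 20.1 and 18.2 FPKM against 18.8 and 26.5 FPKM for NM_009318.2, and 18.3 and 18.6 FPKM against 16.5 and 20.1 FPKM for NM_001025313.1.

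Most of the non-classical class I and class I-like genes that were tested rose. Of 16 listed genes 12 were tested, 3 were below the limit and H2-T10 was not analysed here. Of those tested, 10 rose, none fell and 8 rose more than 2-fold, beside 18.6%, 5.93% and 13.1% of all genes tested. The median log2 fold change of those 12 was 1.76, beside 0.05 over all genes tested. H2-T23, which encodes Qa-1, a ligand of receptors on natural killer cells, was at 12.0 and 14.0 FPKM in the untreated and 42.5 and 44.0 FPKM in the 5-AZA samples (log2 fold change 1.73, adjusted p = 1.23e-05, limma). H2-M3, which presents formylated peptides, was at 0.486 and 1.22 FPKM and then 3.45 and 6.98 FPKM (log2 fold change 2.51, adjusted p = 0.00283, limma). Hfe, a class I-like regulator of iron uptake, was at 1.20 and 1.48 FPKM and then 3.80 and 4.21 FPKM (log2 fold change 1.52, adjusted p = 0.000842, limma). In all 3 genes the groups were apart. H2-M3 did not pass without a limit on low values (adjusted p = 0.131, limma). Without replicate 101 or 102 the log2 fold change was 3.01 or 2.01 for H2-M3 and 1.59 or 1.45 for Hfe.

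The other large changes were a log2 fold change of 2.30 for H2-Q1, 2.87 for H2-Q4, 3.78 for H2-Q6, 1.80 for H2-Q7 and 3.00 for H2-T24. These genes had untreated levels of at most 1.47 FPKM. H2-Q6 was at 0.386 and 3.44e-07 FPKM without treatment, so that its fold rests on the added 0.1 FPKM. H2-T22 rose by 0.82 and Fcgrt, the neonatal Fc receptor, by 0.46 on the log2 scale. Mr1, which presents vitamin metabolites, had a log2 difference of 0.00, and Cd1d1, which presents lipids, one of 0.59 that did not pass (adjusted p = 0.0534). The H2-Q and H2-T genes are close copies, and the reads they share cannot be assigned with certainty. Without a limit on low values 5 of the list rose more than 2-fold, beside 1179 of all 17510 genes tested in that setting. H2-M3, H2-Q1 and H2-Q6 did not pass there. Without either 5-AZA replicate fewer of the list rose more than 2-fold, and fewer of all genes tested did so too. Fcgrt did not pass when any of the 4 samples was left out (adjusted p from 0.0539 to 0.123), and with curated transcripts only neither Fcgrt (0.0708) nor H2-T22 (0.115) passed.

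Loading helpers, the chaperones and the trimming enzyme of the endoplasmic reticulum, had log2 differences between -0.17 and 0.49. Of 6 genes only Erap1, the aminopeptidase that trims peptides to length, rose, as did 18.6% of all genes tested. Erap1 went from 9.12 and 7.66 FPKM to 11.8 and 11.8 FPKM (log2 fold change 0.49, adjusted p = 0.0301, limma). Calr had a log2 difference of 0.14, Canx of -0.16, Pdia3 of -0.17 and Tapbpl of 0.32, and none of them passed. After centring on the median Canx passed as lower (log2 fold change -0.27, adjusted p = 0.0373, limma). Erap1 itself did not pass without any of untreated replicate 2, 5-AZA replicate 101 or 5-AZA replicate 102, with adjusted p between 0.201 and 0.259, nor without a limit on low values (0.106) or with curated transcripts only (0.171).

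**Figure D4:**
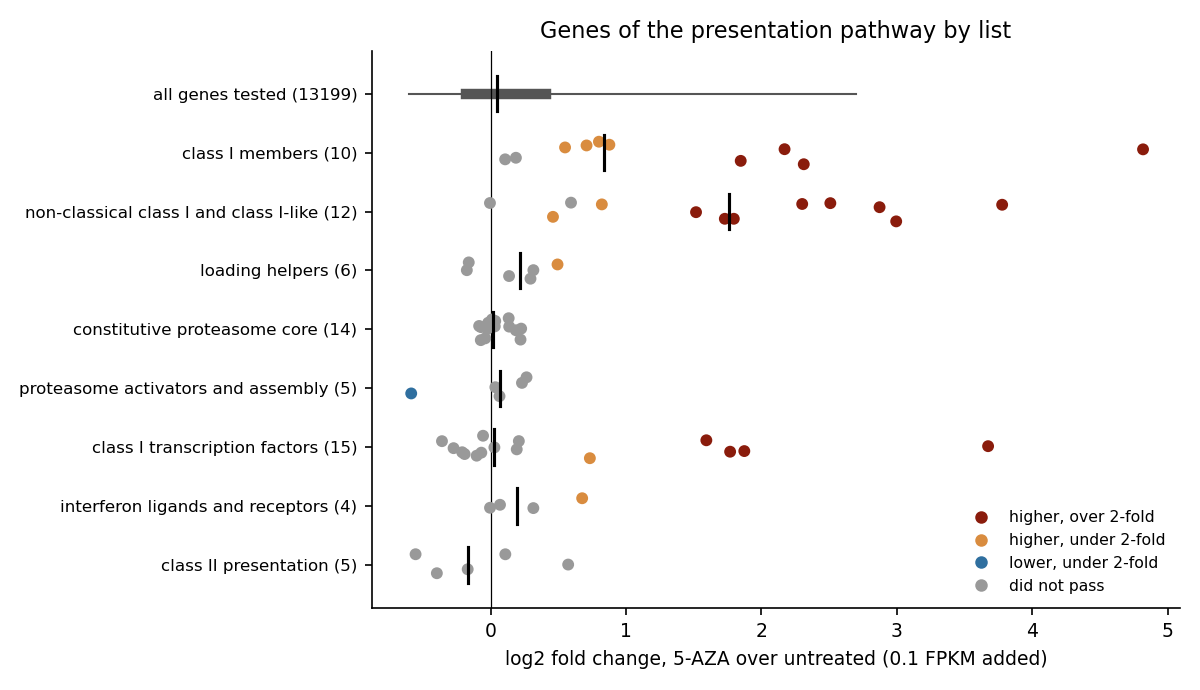
Log2 fold change of each tested gene by list, 5-AZA over untreated after adding 0.1 FPKM, with 1 point per gene, a black tick for the median and, for all 13199 genes tested, a thick bar from the 25th to the 75th and a thin line from the 5th to the 95th percentile. Members and non-classical genes have medians of 0.84 and 1.76, and the constitutive proteasome core lies around its median of 0.02.

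Transcription factors of class I genes fell into distinct groups. Of 17 listed factors 15 were tested, 5 rose and none fell, beside 18.6% and 5.93% of all genes tested. At an unadjusted p under 0.05 in limma 5 were higher and 1 was lower. The median log2 difference of the tested factors was 0.03. Those named here that rose carry or amplify interferon signals. Irf7 was at 0.593 and 0.735 FPKM in the untreated and 9.84 and 9.38 FPKM in the 5-AZA samples (log2 fold change 3.67, adjusted p = 4.46e-06, limma). Irf9 was at 7.72 and 6.67 FPKM and then 26.4 and 26.8 FPKM (log2 fold change 1.87, adjusted p = 1.21e-05, limma). These genes were several-fold higher in both treated samples, with little spread between them.

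Stat2 was at 4.90 and 4.91 FPKM without and 16.1 and 17.9 FPKM with treatment (log2 fold change 1.77, adjusted p = 2.32e-05, limma). Irf1, which binds interferon response elements of class I genes, was at 11.0 and 12.1 FPKM and then 20.1 and 18.4 FPKM, a rise of 0.73 on the log2 scale (adjusted p = 0.00225, limma). Irf1 did not pass without replicate 101 (adjusted p = 0.0891) or 102 (0.0768).

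The factors of the X and Y boxes did not pass. Rfx5, the DNA-binding subunit of the RFX complex, was at 4.19 and 4.90 FPKM in the untreated and 3.46 and 4.02 FPKM in the 5-AZA samples, a log2 difference of -0.27 (95% interval -0.68 to 0.13). The NF-Y subunits Nfya, Nfyb and Nfyc had log2 differences of -0.19, -0.07 and -0.36. Nfyc was the factor counted as lower at an unadjusted p under 0.05 (95% interval -0.68 to -0.04, adjusted p = 0.104, limma). Irf2 differed by 0.21, and the NF-κB subunits Rela and Nfkb1 by 0.03 and -0.06. Ciita, the transactivator of class II genes, was below 0.1 FPKM in all samples and was not tested.

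Of the interferon genes, Ifnb1 and Ifng were looked up. Ifnb1 was listed at 0 in all 4 samples, and Ifng was listed at 0 in both untreated samples and at 0.188 and 0.0778 FPKM after 5-AZA, below the limit for testing. Of the 4 receptor subunits, Ifnar2 rose, as did 18.6% of all genes tested. It went from 20.1 and 17.5 FPKM to 28.6 and 31.5 FPKM (log2 fold change 0.68, adjusted p = 0.00321, limma). Ifnar2 did not pass without replicate 101 (adjusted p = 0.101) or 102 (0.128), nor without a limit on low values. The values for Ifnar1, Ifngr1 and Ifngr2 did not pass, with log2 differences of 0.00, 0.32 and 0.07. Receptor subunits of both interferon types were thus measured at over 10 FPKM in every sample.

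Class II presentation genes gave no call. Of 9 listed genes 5 were tested, none passed in limma, 1 was at an unadjusted p under 0.05, and the median log2 difference was -0.17. H2-Eb1, a chain of a class II molecule shown by antigen-presenting cells, was at 0 in all samples, and H2-Aa reached at most 0.154 FPKM. H2-DMa and H2-DMb1, whose products help load class II molecules, were measured in every sample, at 7.87 and 5.32 FPKM and then 3.46 and 5.54 FPKM for H2-DMa and at 12.4 and 13.9 FPKM and then 8.64 and 11.4 FPKM for H2-DMb1. H2-DMb2 lay between 1.79 and 3.67 FPKM, and Cd74, the invariant chain, between 1.501 and 2.90 FPKM.

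Noncoding RNAs within the member genes were few. Spans of 8 members were overlapped by lncRNAs, 33 in all when counted per member, and 25 of these stayed below 0.1 FPKM in every sample. Only 2 reached 1 FPKM. NONMMUT129235.1, a transcript of 1 exon within Nlrc5 (chr8:94450416-94451070, plus strand, as the authors list it), was at 23.3 and 20.7 FPKM in the untreated and 16.2 and 16.7 FPKM in the 5-AZA samples. It was thus lower in both treated samples, where Nlrc5 was higher, and no test was made. NONMMUT039536.2, within B2m, was at 2.00 and 1.79 FPKM and then 1.75 and 2.25 FPKM, with overlap. None of the 4295 circRNAs had a member as its host gene.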

How the data were processed

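Ribosomal RNA was removed and stranded libraries were sequenced by the authors. They deposited FPKM values per mRNA and lncRNA transcript and RPM values per circRNA. The submitters' processing notes list Trimmomatic, HISAT2, Bowtie2 2.2.9 and eXpress 1.5.1 and the build mm9, without roles. Positions in the deposited values fitted GRCm38.p6, since 95 of 95 assembled lncRNAs overlapped the RefSeq gene named as nearest and 85.9% of 2356 circRNA host transcripts lay inside their gene. Promoter windows were taken from RefSeq. The study names a count-based test, but as FPKM is no count, log2(FPKM + 0.1) was tested with limma 3.58.1 (lmFit, eBayes with trend) in R 4.3.3, with the package data.table at version 1.17.8. Genes or transcripts with a mean of at least 0.1 FPKM entered, and p-values were adjusted by Benjamini and Hochberg over all of them. A gene passed at an adjusted p under 0.05, and "more than 2-fold" adds that size.

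The members and the lists of related genes were chosen with earlier results of these data known. Named in the text are all members, their transcripts with a mean of at least 1 FPKM in a group, every related gene that changed more than 2-fold, and partners fixed by role. A few others were chosen after their values were seen, among them Psme4, H2-T22, Fcgrt, Mr1, Cd1d1, Ifnar2 and the NF-Y and NF-κB subunits. The class II genes, the named muscle genes, the Nlrc5 transcripts and both lncRNAs were chosen in the same way. Of the lncRNAs that overlap members only the 2 at 1 FPKM or more are named. The fit was also run on simulated data, with the spread shuffled among genes and rises as likely as falls. The data here differ in this, and no conclusion is drawn from that trial. Alternatives were other pseudocounts, limits, scalings, curated transcripts only and omission of each sample. The number of sample columns left unused was 0. Depth cannot be read from FPKM. The values of 1 gene counted among the class I transcription factors are not reported here.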

Additional observations from a re-analysis of the deposited data

How the results depend on the processing

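H2-K1 and H2-D1 rose at an adjusted p under 0.05 in the main analysis and under all 13 alternatives, with log2 fold changes of 2.17 to 3.11 and 1.96 to 2.39. The number of members that rose (8) was 5 without a limit on low values and 5 with curated transcripts only. It was 6 with a plain variance prior, 7 with a limit of 1 FPKM and 7 after quantile normalization. When either 5-AZA replicate was left out fewer members rose, and fewer of all genes tested rose more than 2-fold. The lone sample left in a group was then assumed to vary like the other group. The median log2 fold change of the members (0.84) was 0.62 to 1.08 with each sample left out. The number of member transcripts that rose more than 2-fold (3) was 0 without a limit on low values and 0 to 1 with each sample left out. Of the related genes 12 rose more than 2-fold, beside 13.1% of all genes tested. These were 8 of the 12 tested non-classical and class I-like genes and 4 of the 15 tested transcription factors. The loading helper, proteasome, interferon and class II lists held none. The number was 9 without a limit on low values and 11 with curated transcripts only, and it also fell without either 5-AZA replicate. The log2 difference of the Psmb9 to Psmb6 ratio (0.68) was 0.28 with curated transcripts only. Among differences that did not pass, the sign turned for Tap2 (-0.0548 to 0.43), Tapbp (-0.0911 to 0.31) and Psmb5 (-0.18 to 0.0148) with each sample left out. It also turned for Psmb6 (-0.0721 after centring on the median and -0.0118 after quantile normalization), Psmb7 (0.0158 with curated transcripts only), and Tapbpl (-0.30) and Irf2 (-0.0395) after quantile normalization. Centring on the median moved the log2 fold changes of all genes by a median of -0.11, and quantile normalization by -0.11. Quantile normalization gave 1041 genes higher and 886 lower by more than 2-fold, against 1724 and 174. The cause of these shifts was not tested. Nlrc5 had no value with a limit of 1 FPKM or with curated transcripts only. No paired analysis was possible because the groups share no replicate number.

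With 2 samples in each group, a gene that did not pass has not been shown to be unchanged, and no permutation of the samples can reach 0.05. Depth limits what can be said of values below about 0.1 FPKM, such as those of Nlrc5 in the untreated samples, and no read counts were at hand to bound it.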
